A study of Mus musculus with 12 samples.

Results

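Glucose is split to pyruvate by the enzymes of glycolysis, and many of their genes are also targets of the hypoxia-inducible factors. Described here are 36 such genes of the 20325 in the gene tables. They are the glucose transporters, the glycolytic enzymes with their regulators, the lactate enzymes and carriers, the pyruvate dehydrogenase kinases, Hif1a with the oxygen-sensing prolyl hydroxylases, and 7 further hypoxia-induced genes. Each was taken as the row that carries its symbol, and all 36 were found and passed the filter on low counts.

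The libraries hold polyadenylated RNA of mouse embryonic fibroblasts (MEFs) and of such cultures on day 4 of reprogramming towards induced pluripotent stem cells, in 6 groups of 2 libraries. The genotype was AF10 -/-, OSKM, rtTA in the creAF10 groups and AF10 fl/fl, OSKM, rtTA in the fl groups, where AF10 is Mllt10, OSKM stands for the 4 reprogramming factors and rtTA is the transactivator that doxycycline switches on. AF10 is a cofactor of DOT1L, the methyltransferase of histone H3 lysine 79, and SGC0946 is a DOT1L inhibitor. Day4_creAF10_SGC and Day4_fl_SGC were grown with 2 µg/mL doxycycline and 5 µM SGC0946. Day4_creAF10_DMSO and Day4_fl_DMSO had the same doxycycline with the vehicle DMSO, and MEF_creAF10 and MEF_fl were uninduced. The creAF10 groups had received an adenovirus with Cre, driven by the CMV promoter (Ad5-CMV-Cre), and the fl groups the empty virus (Ad5-CMV-Empty), 2 days before reprogramming began. The Cre virus was not given to cells lacking the floxed allele, so AF10 deletion and the Cre virus itself cannot be told apart. Day 4 cultures were kept on DR4 feeder MEFs over gelatin in ESC medium containing LIF, while uninduced cells had MEF medium. Medium, feeders and doxycycline thus cannot be told apart, and whether feeder RNA is in the day 4 libraries was not tested.

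In glycolysis, glucose enters through SLC2A carriers, is phosphorylated by hexokinase and committed by phosphofructokinase, and is cleaved by aldolase to triose phosphates that yield ATP on the way to pyruvate. Pyruvate is either burnt in mitochondria, which the pyruvate dehydrogenase kinases restrain, or reduced to lactate, which leaves the cell through SLC16A carriers. In oxygen the EGLN prolyl hydroxylases mark HIF1A for destruction, and without oxygen it persists and raises many of these genes. Reprogramming of fibroblasts is known for a turn towards glycolysis in its first days.

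The libraries held 14602536 to 22800753 expected counts. Mllt10 in creAF10 libraries was at 72.1% to 82.1% of the level of the same-numbered fl library, and these are gene-level values that do not resolve the floxed exons. Replicate 1 of every group held 4035 to 4780 counts of 4 Y-linked genes and replicate 2 held 8 to 52, so same-numbered libraries are treated here as 1 source of cells. The fibroblast markers were present in all libraries, with a summed level of 18296 to 19719.8 TPM on day 4 against 35027 to 43225 TPM in MEFs, and no marker was at 0. The 16 proliferation genes summed to 1039 to 1204 TPM on day 4 against 635 to 704 TPM in MEFs. The 16 macrophage and blood markers summed to 63.9 to 102 TPM on day 4 against 10.9 to 27.2 TPM in MEFs, with only haemoglobin genes and Aif1 ever at 0 in both libraries of a group. Among the 12 tested, 5 rose in creAF10 and 7 in fl cells, beside 27.5% and 25.7% of all genes tested. The 8 endothelial markers summed to 35.7 to 54.6 TPM on day 4 against 8.97 to 9.97 TPM in MEFs, with Tie1, Cldn5 or Emcn at 0 in some groups. Only 3 of them were tested, too few to set beside a share of all genes, and 1 rose and 1 fell. What part these cells had in the results below was not tested. These are bulk samples, so a change in the share of a cell type and a change in RNA per cell cannot be told apart.

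Per transcript length, the members spanned a wide range of levels. In Day4_fl_DMSO, Gapdh, the dehydrogenase of the first ATP-yielding stretch, was the highest at 3209 ± 0.615 TPM (SD, n = 2). Pyruvate kinase Pkm2 followed at 1334 ± 39.6 TPM and lactate dehydrogenase Ldha at 968 ± 85.9 TPM. The enolase Eno1 had 792 ± 66.5 TPM on its own row. That row leaves out reads given to Gm5506, as described below, so the rank of Eno1 is uncertain. The carbonic anhydrase Car9 was the lowest at 1.61 ± 0.481 TPM, and the lactate carrier Slc16a3 stood at 3.44 ± 0.962 TPM. All 36 members together took 8683 and 10077 TPM in Day4_creAF10_DMSO against 7326 and 7055 TPM in MEF_creAF10. In fl cells they took 9950.3 and 10277 TPM in Day4_fl_DMSO against 7298 and 6821 TPM in MEF_fl. The summed level was thus higher in each day 4 library than in each MEF library. The sum of the 7 members listed as hypoxia targets went the other way, at 250.5 to 305 TPM in the day 4 DMSO libraries against 394 to 453 TPM in MEFs. Much of that sum was P4ha1 and P4ha2, at means of 58.2 and 26.6 TPM in Day4_fl_DMSO against 123 and 119 TPM in MEF_fl. The 7 did not move together, and Bnip3 had 88.3 TPM in Day4_fl_DMSO against 57.7 TPM in MEF_fl.

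On day 4 in DMSO, mRNAs of most of the glycolytic chain were higher than in MEFs, from a glucose transporter to lactate dehydrogenase, while those of the collagen prolyl hydroxylases, Car9, Vegfa and Hif1a itself were lower. In creAF10 cells 20 of the 36 members rose and 5 fell by edgeR's quasi-likelihood test (p adjusted by Benjamini-Hochberg, under 0.05), against 27.5% of the 13936 genes tested that were called higher and 27.5% called lower. In fl cells 20 rose and 6 fell, against 25.7% of all genes called higher and 26.3% called lower. The share of members called higher was 55.6% in both genotypes, and that called lower was 13.9% in creAF10 and 16.7% in fl cells, so the higher share lay above the background and the lower share below it. The median log2 fold change of the members was 0.35 in creAF10 cells, beside 0.02 over all genes tested, and 0.36 in fl cells, beside 0.01. The same 19 members rose and the same 5 fell in both genotypes, and none was called in opposite directions. The fit with a replicate block per stage, called the paired fit here, called 22 members higher and 8 lower in creAF10 cells, beside 35.6% and 34.8% of all genes, and 22 higher and 7 lower in fl cells, beside 33.9% and 34.3%. A single replicate block called 20 higher and 5 lower in creAF10 cells, beside 31.0% and 31.0% of all genes, and 20 higher and 7 lower in fl cells, beside 29.2% and 30.2%. The plot of fold changes by role shows both genotypes side by side.

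**Figure D1:**
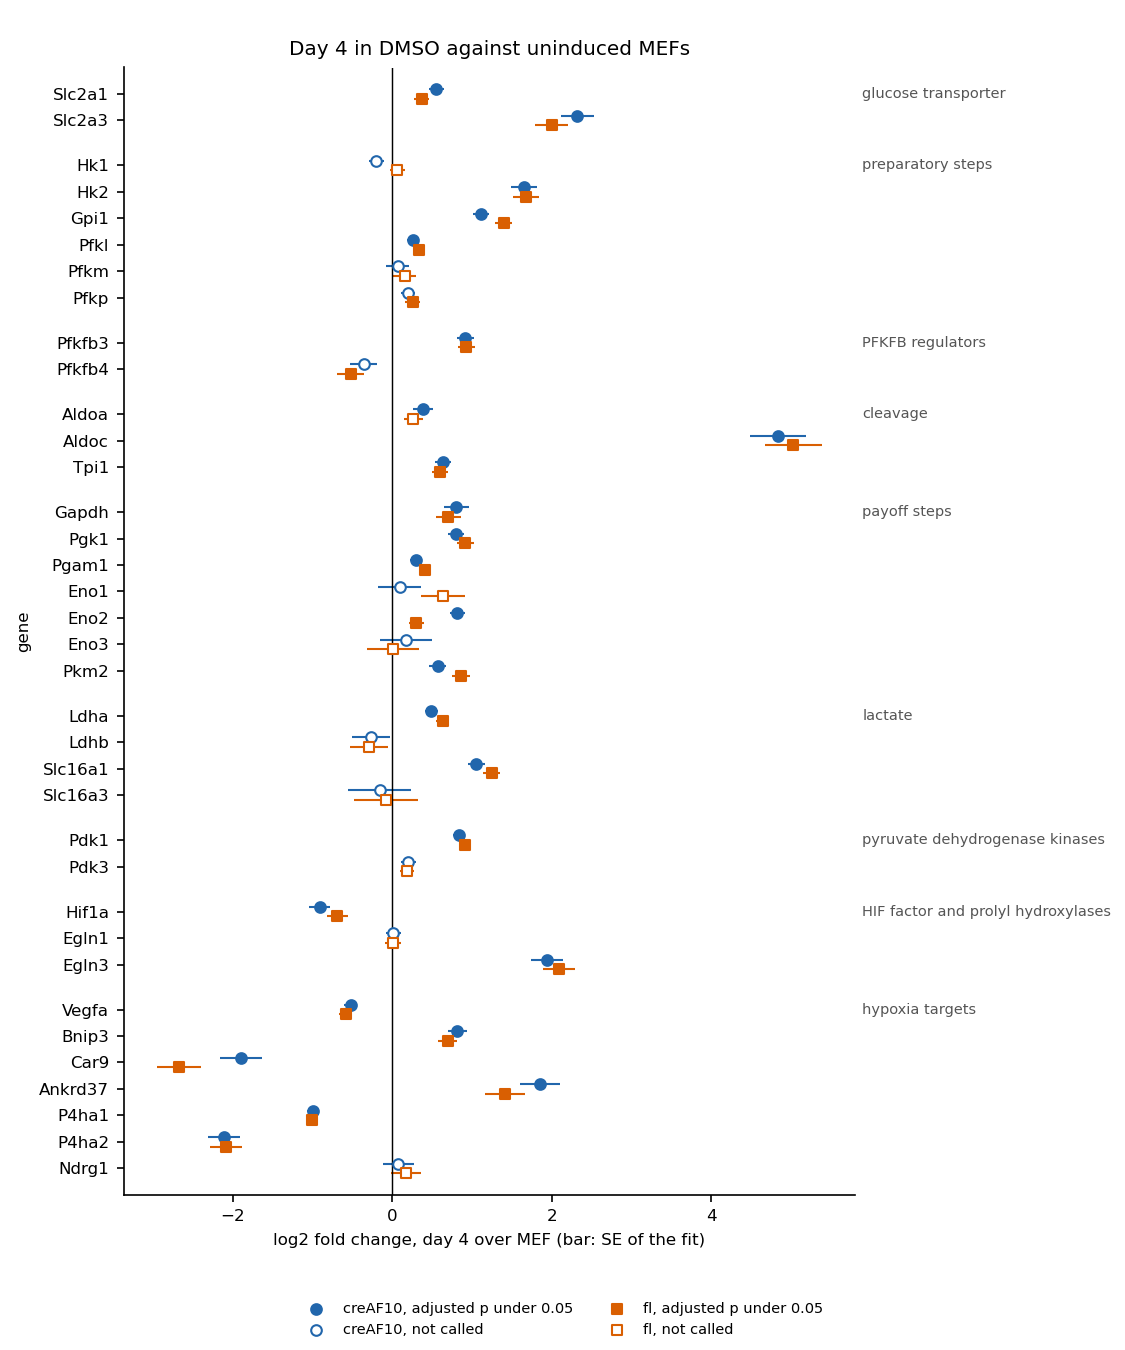
Log2 fold change of each of the 36 members, day 4 in DMSO over uninduced MEFs, from the edgeR fit without a block; circles are creAF10 cells, squares fl cells, bars the standard error of the fit, and filled symbols an adjusted p under 0.05. Aldoc lies farthest to the right and Car9 and P4ha2 farthest to the left, in both genotypes.

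The mRNAs of both glucose transporters were higher on day 4. Slc2a3, the high-affinity transporter GLUT3, had 32.2 and 33.9 CPM (reads scaled to library size by TMM) in Day4_creAF10_DMSO against 8.35 and 5.02 CPM in MEF_creAF10, and 25.4 and 26.6 CPM in Day4_fl_DMSO against 7.41 and 5.58 CPM in MEF_fl. All 4 day 4 libraries lay well above all 4 MEF libraries. The log2 fold change was 2.32 ± 0.21 in creAF10 cells (SE of the fit; edgeR adjusted p = 1.69e-05) and 2.000 ± 0.21 in fl cells (adjusted p = 4.41e-05). Slc2a1, the widespread transporter GLUT1, rose less, with log2 fold changes of 0.56 ± 0.09 (adjusted p = 7.44e-04) and 0.37 ± 0.09 (adjusted p = 0.00754). The call of Slc2a1 in fl cells was lost without MEF_fl replicate 1 (adjusted p = 0.0542) or without Day4_fl_DMSO replicate 1 (adjusted p = 0.0708). Of the summed TPM of both transporters, Slc2a3 made up 16.3% to 21.2% in the day 4 DMSO libraries against 5.33% to 8.73% in MEFs.

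Of the enzymes that prepare glucose for cleavage, the hexokinase Hk2 and the isomerase Gpi1 rose most. Hk2, the inducible hexokinase, had 52.2 and 55.6 CPM in Day4_creAF10_DMSO against 20.6 and 13.9 CPM in MEF_creAF10, and 58.3 and 54.6 CPM in Day4_fl_DMSO against 18.7 and 16.4 CPM in MEF_fl. Stages did not overlap, and the log2 fold change was 1.65 ± 0.16 in creAF10 cells (edgeR adjusted p = 3.07e-05) and 1.68 ± 0.16 in fl cells (adjusted p = 2.87e-05). Hk1, the constitutive hexokinase, had -0.20 in creAF10 cells (adjusted p = 0.0945) and 0.06 in fl cells (adjusted p = 0.596), and was called lower in creAF10 cells by the paired fit only (adjusted p = 0.0176). Hk1 remained the more abundant per length. Of the summed TPM of both hexokinases, Hk2 made up 24.1% to 28.8% in the day 4 DMSO libraries against 7.79% to 11.6% in MEFs. Gpi1, the phosphoglucose isomerase, had 498 and 576 CPM in Day4_creAF10_DMSO against 264 and 232 CPM in MEF_creAF10, and 598 and 582 CPM in Day4_fl_DMSO against 232 and 214 CPM in MEF_fl. Every day 4 library thus lay far above every MEF library, with log2 fold changes of 1.11 ± 0.11 (adjusted p = 2.39e-05) and 1.40 ± 0.11 (adjusted p = 6.58e-06).

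The committing step changed little in its enzyme and more in its regulator. Among the phosphofructokinase isoenzymes, the liver form Pfkl rose by 0.26 in creAF10 and 0.34 in fl cells on the log2 scale, while the muscle form Pfkm was not called (adjusted p = 0.703 and 0.379). The platelet form Pfkp had 0.19 in creAF10 cells (edgeR adjusted p = 0.0905, and 0.0294 in the paired fit) and was called in fl cells (0.26, adjusted p = 0.0351). Without MEF_creAF10 replicate 2 Pfkm passed in creAF10 cells (adjusted p = 0.0416). Leaving out any of the 4 fl libraries of that comparison ended the fl call of Pfkp (adjusted p = 0.0507 to 0.173), and DESeq2 did not call it (adjusted p = 0.0682). Without MEF_creAF10 replicate 1 or either Day4_creAF10_DMSO replicate the creAF10 call of Pfkl ended too (adjusted p = 0.0528 to 0.11). Of the summed TPM of the 3 forms, Pfkl made up 36.2% to 37.3% in the day 4 DMSO libraries against 32.9% to 36.6% in MEFs.

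PFKFB enzymes set the level of fructose 2,6-bisphosphate, the activator of phosphofructokinase, and their 2 members moved apart. Pfkfb3 had 40.1 and 41.2 CPM in Day4_creAF10_DMSO against 23.2 and 19.8 CPM in MEF_creAF10, and 44.1 and 42.8 CPM in Day4_fl_DMSO against 21.6 and 23.9 CPM in MEF_fl. It rose with log2 fold changes of 0.92 ± 0.11 (adjusted p = 9.28e-05) and 0.93 ± 0.11 (adjusted p = 9.23e-05). Pfkfb4 had -0.36 ± 0.17 in creAF10 cells (adjusted p = 0.102, and 0.0208 in the paired fit) and fell in fl cells (-0.52 ± 0.17, adjusted p = 0.0282). The fl call of Pfkfb4 was lost without MEF_fl replicate 1 or without either Day4_fl_DMSO replicate (adjusted p = 0.087 to 0.144). Pfkfb3 made up 74.2% to 77.8% of the TPM of both in the day 4 DMSO libraries against 51.7% to 57.97% in MEFs.

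The largest change of any member was at aldolase. Aldoc, the aldolase typical of brain, had 65.5 and 52.7 CPM in Day4_creAF10_DMSO against 2.49 and 1.70 CPM in MEF_creAF10, and 86.00 and 53.8 CPM in Day4_fl_DMSO against 2.73 and 1.52 CPM in MEF_fl. The lowest day 4 library held many times the level of the highest MEF library, and replicate 1 was higher than replicate 2 in every group. Its rise had a log2 fold change of 4.84 ± 0.35 in creAF10 cells (edgeR adjusted p = 1.07e-05), a 28.6-fold difference, and 5.03 ± 0.36 in fl cells (adjusted p = 9.55e-06), a 32.7-fold difference. Even so, Aldoa, the main aldolase outside brain and liver, remained the more abundant per length, and Aldoc made up 7.16% to 12.1% of the TPM of both in the day 4 DMSO libraries against 0.331% to 0.535% in MEFs. Of the 12 neural markers, 10 were tested, of which 1 rose and 5 fell in each genotype. Over all genes, 27.5% rose and 27.5% fell in creAF10 cells, and 25.7% and 26.3% in fl cells. The 12 neural markers summed to 113 to 203 TPM in the day 4 DMSO libraries against 131 to 138 TPM in MEFs. Aldoa itself had log2 fold changes of 0.39 ± 0.12 in creAF10 cells (adjusted p = 0.0204) and 0.27 ± 0.12 in fl cells (adjusted p = 0.0883, and 0.0166 in the paired fit). The creAF10 call of Aldoa ended without either MEF_creAF10 replicate or without Day4_creAF10_DMSO replicate 2 (adjusted p = 0.0501 to 0.174), and the fl value passed without MEF_fl replicate 1 (adjusted p = 0.0401). Tpi1, which interconverts the triose phosphates, rose by 0.63 and 0.60 in creAF10 and fl cells (adjusted p = 5.37e-04 and 8.38e-04).

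The levels plotted by library show these differences next to those of the carriers and hypoxia genes.

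**Figure D2:**
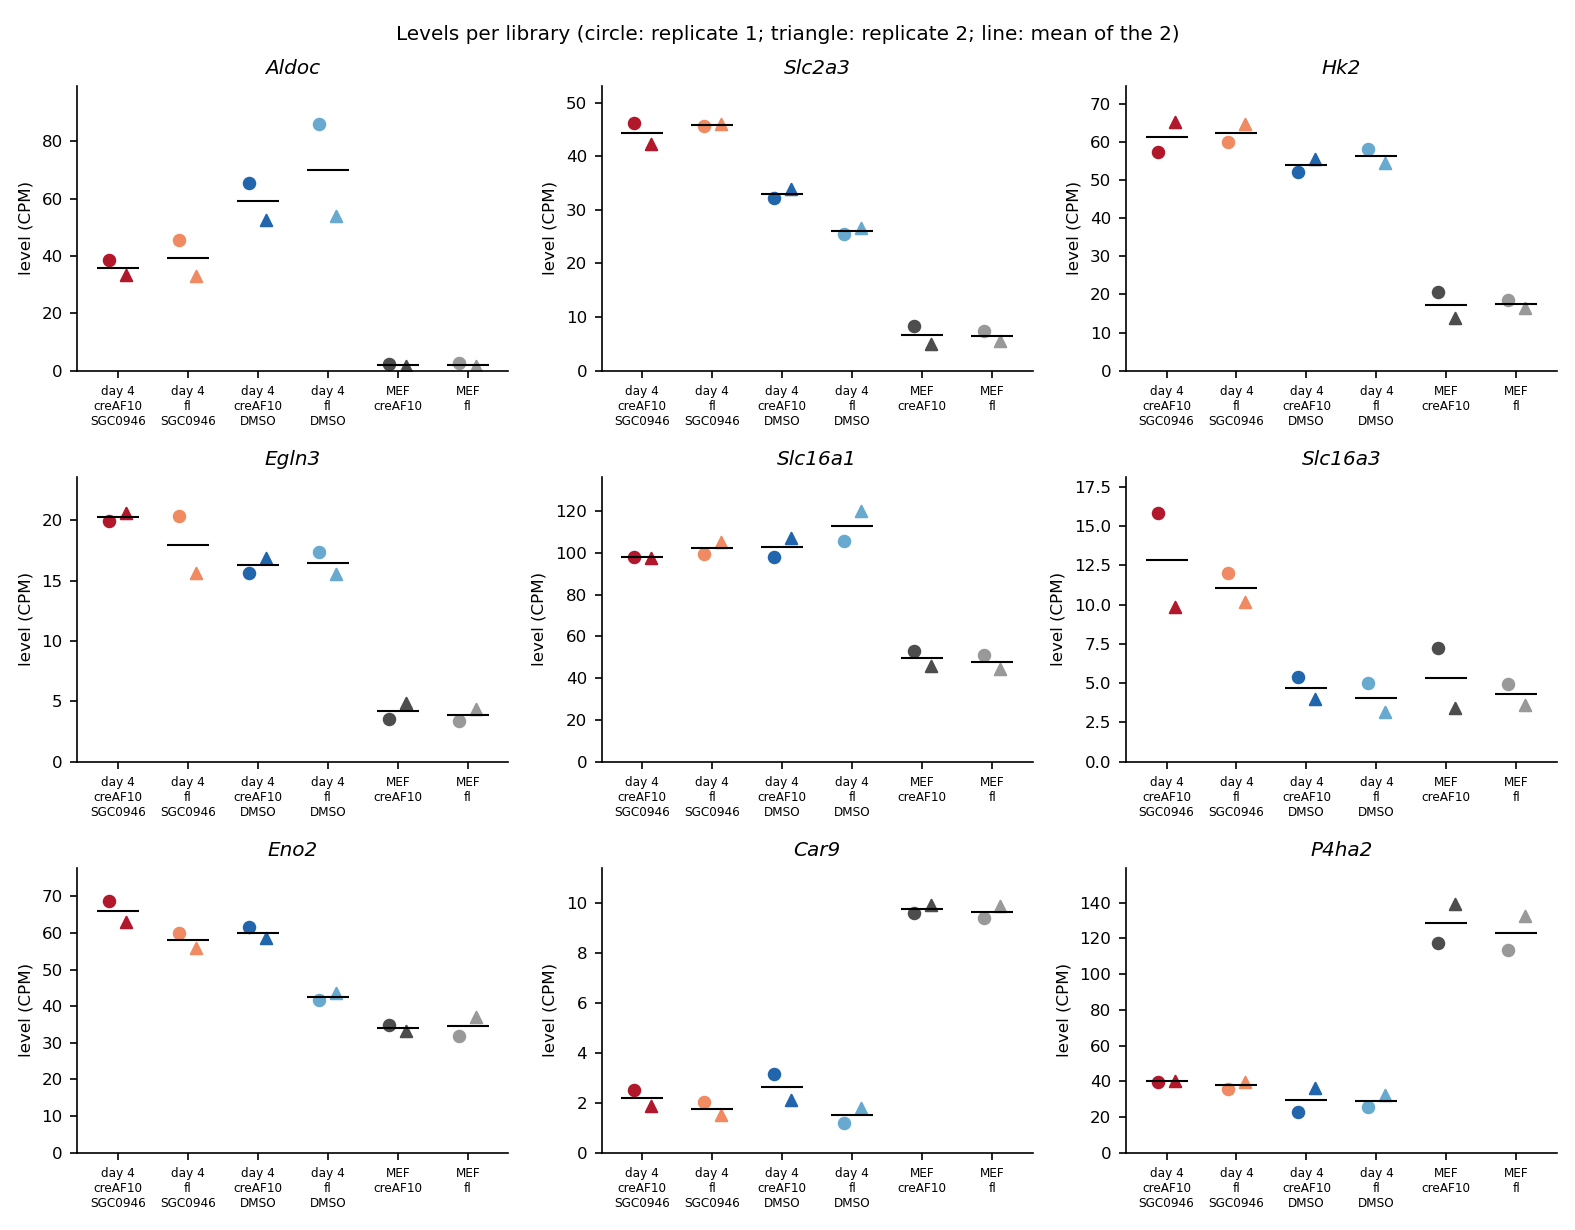
Level of 9 members in each of the 12 libraries, in TMM-scaled CPM on linear axes from 0; circles are replicate 1, triangles replicate 2 and lines the mean of both. Aldoc, Slc2a3, Hk2, Egln3 and Slc16a1 are higher in every day 4 library than in any MEF library, Car9 and P4ha2 lower, and Slc16a3 is highest in the 4 SGC0946 libraries.

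The steps from glyceraldehyde 3-phosphate to pyruvate rose together but moderately. Gapdh rose by 0.80 in creAF10 and 0.71 in fl cells on the log2 scale, and Pgk1, the phosphoglycerate kinase, by 0.80 and 0.92. Pgam1, the phosphoglycerate mutase, rose by 0.30 and 0.42, and Pkm2 by 0.57 and 0.86. All 8 values were called, with edgeR adjusted p from 8.71e-05 to 0.00714, and for each of these 4 genes all day 4 DMSO libraries lay above all MEF libraries. The muscle enolase Eno3 was not called (adjusted p = 0.675 and 0.977), and in MEFs its level in replicate 1 was well above that in replicate 2.

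Eno2, the enolase known from neurons, was the one member whose change differed between genotypes by a test of the difference, and only in the paired fit. It had 61.5 and 58.5 CPM in Day4_creAF10_DMSO against 34.8 and 33.3 CPM in MEF_creAF10, and 41.6 and 43.5 CPM in Day4_fl_DMSO against 31.9 and 37.02 CPM in MEF_fl. The 2 stages did not overlap in either genotype, and the Day4_creAF10_DMSO libraries were the highest of the 4 groups. The log2 fold change was 0.82 ± 0.10 in creAF10 cells (adjusted p = 8.36e-05) and 0.30 ± 0.10 in fl cells (adjusted p = 0.0225), where it was lost without MEF_fl replicate 1 or without either Day4_fl_DMSO replicate (adjusted p = 0.0573 to 0.163). The difference between the 2, creAF10 minus fl, was 0.51 ± 0.12 in the paired fit (edgeR adjusted p = 0.0277), and 0.51 ± 0.13 without a block (adjusted p = 1, unadjusted p = 0.00361). Calls in this comparison were made for 0.933% of all genes in that direction by the paired fit and 0.0% without a block.

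Eno1, the main enolase, could not be read from its own row. The counting tool divides reads that fit several genes, and the row of Gm5506, which RefSeq lists as Eno1b, held 23.9 to 66.9% of the CPM given to both. Eno1 had 307 and 613 CPM in Day4_creAF10_DMSO against 489.5 and 373 CPM in MEF_creAF10, and 642 and 698 CPM in Day4_fl_DMSO against 426 and 436 CPM in MEF_fl. Replicate 1 of Day4_creAF10_DMSO stood below all other libraries, and in it Gm5506 took the largest share. Eno1 alone was not called by edgeR (adjusted p = 0.794 in creAF10 and 0.0825 in fl cells), while DESeq2 called it in fl cells (adjusted p = 0.0248). With edgeR it was called in creAF10 cells without that library (log2 fold change 0.51, adjusted p = 0.0419). In fl cells it was called without either Day4_creAF10_DMSO replicate, which changes the shared spread (adjusted p = 0.00595 and 0.00598). Summed, both rows gave 928 and 1075 CPM in Day4_creAF10_DMSO against 678 and 598 CPM in MEF_creAF10, and 1132 and 1067 CPM in Day4_fl_DMSO against 594 and 574 CPM in MEF_fl. As 1 row they rose in both genotypes, by 0.65 ± 0.10 in creAF10 (edgeR adjusted p = 0.000514) and 0.91 ± 0.10 in fl cells (adjusted p = 7.30e-05) on the log2 scale. This sum was chosen after the values were seen, and it also counts any transcript of Gm5506 itself.

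**Figure D3:**
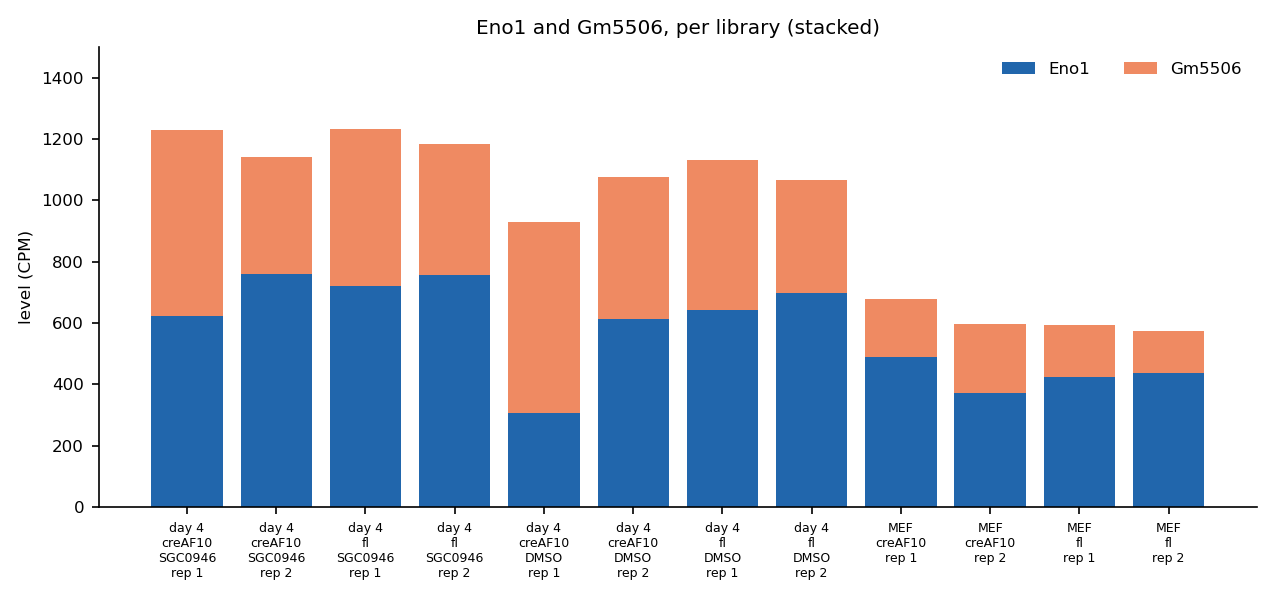
Stacked level of Eno1 (lower bar part) and Gm5506 (upper part) in each of the 12 libraries, in TMM-scaled CPM. The summed height is 928 to 1232 CPM in the day 4 libraries and 574 to 678 CPM in the MEF libraries, while the split between both rows varies, most in replicate 1 of the creAF10 DMSO group.

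At the end of the chain, the mRNAs of Ldha and of 1 lactate carrier rose. Ldha, which favours lactate formation, had log2 fold changes of 0.49 ± 0.08 in creAF10 cells (edgeR adjusted p = 8.23e-04) and 0.63 ± 0.08 in fl cells (adjusted p = 2.02e-04). Ldhb, the heart-type subunit, was called lower in the paired fit, with log2 fold changes of -0.25 in creAF10 and -0.27 in fl cells (adjusted p = 0.0053 and 0.00256), but not called without a block (adjusted p = 0.372 and 0.332). Its MEF levels differed between replicates, at 69.4 and 97.3 CPM in MEF_creAF10 and 64.9 and 100.1 CPM in MEF_fl, and the day 4 range of 58.9 to 75.8 CPM in DMSO overlapped them. The monocarboxylate carrier Slc16a1, MCT1, had 98.2 and 107 CPM in Day4_creAF10_DMSO against 53.02 and 45.8 CPM in MEF_creAF10, and 106 and 120.1 CPM in Day4_fl_DMSO against 50.9 and 44.2 CPM in MEF_fl. It rose in both genotypes without overlap (1.06 ± 0.10, adjusted p = 2.91e-05; 1.25 ± 0.10, adjusted p = 1.14e-05). Slc16a3, the carrier MCT4 of strongly glycolytic cells, had 5.41 and 4.02 CPM in Day4_creAF10_DMSO against 7.21 and 3.41 CPM in MEF_creAF10, and 5.00 and 3.16 CPM in Day4_fl_DMSO against 4.92 and 3.64 CPM in MEF_fl. The stages overlapped, and neither change was called (-0.15 ± 0.40, adjusted p = 0.764; -0.08 ± 0.40, adjusted p = 0.884).

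The kinases that shut pyruvate dehydrogenase showed the same kind of division. Pdk1 had 58.8 and 57.5 CPM in Day4_creAF10_DMSO against 32.00 and 32.8 CPM in MEF_creAF10, and 61.01 and 60.3 CPM in Day4_fl_DMSO against 31.8 and 32.8 CPM in MEF_fl. Replicates were nearly equal in all 4 groups, and Pdk1 rose with log2 fold changes of 0.84 ± 0.08 (edgeR adjusted p = 1.75e-05) and 0.91 ± 0.08 (adjusted p = 1.17e-05). Pdk3 had 0.20 ± 0.09 and 0.19 ± 0.09 (adjusted p = 0.0903 and 0.121), and was called higher in the paired fit only (adjusted p = 0.0307 and 0.0489). Per length Pdk3 remained the more abundant of the 2 in every library.

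**Figure D4:**
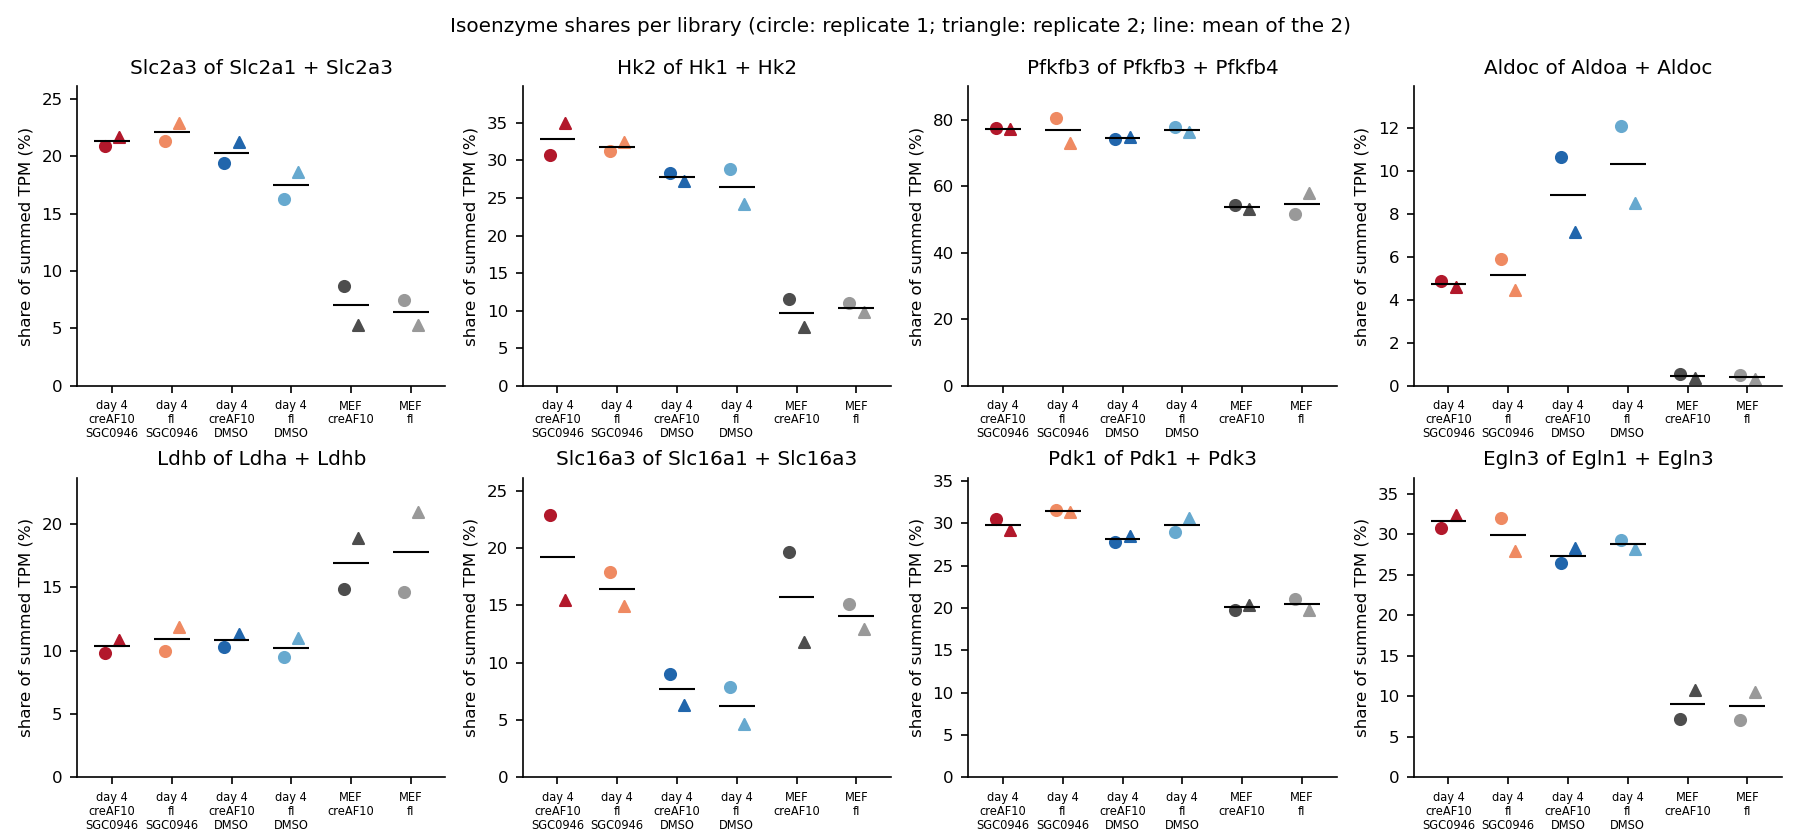
Share of 1 isoenzyme in the summed deposited TPM of its family among the members, per library in percent; circles are replicate 1, triangles replicate 2 and lines the mean of both. Slc2a3, Hk2, Pfkfb3, Aldoc, Pdk1 and Egln3 hold a larger share in each day 4 library than in each MEF library, Ldhb a smaller one, and Slc16a3 holds less in the DMSO libraries of day 4 than in the SGC0946 libraries or in MEFs.

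The oxygen sensors and Hif1a did not move as a unit. Hif1a, the oxygen-regulated subunit, had 188 and 185 CPM in Day4_creAF10_DMSO against 378 and 324 CPM in MEF_creAF10, and 216 and 219.6 CPM in Day4_fl_DMSO against 386 and 315 CPM in MEF_fl. Its mRNA fell in both genotypes (-0.91 ± 0.13, edgeR adjusted p = 2.64e-04; -0.69 ± 0.13, adjusted p = 0.00153), which says nothing of the protein. Egln3, the prolyl hydroxylase PHD3 and itself a HIF target, had 15.6 and 16.9 CPM in Day4_creAF10_DMSO against 3.50 and 4.88 CPM in MEF_creAF10, and 17.4 and 15.6 CPM in Day4_fl_DMSO against 3.38 and 4.37 CPM in MEF_fl. All day 4 libraries exceeded all MEF libraries, and the log2 fold change was 1.94 ± 0.20 (adjusted p = 3.68e-05) and 2.09 ± 0.20 (adjusted p = 2.71e-05). Egln1, the main prolyl hydroxylase PHD2, had 0.02 and 0.01 (adjusted p = 0.894 and 0.931), with overlapping stages.

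The hypoxia targets split, with Bnip3 and Ankrd37 higher and Car9, P4ha2, P4ha1 and Vegfa lower on day 4. Ankrd37, an ankyrin repeat protein, had 3.57 and 4.30 CPM in Day4_creAF10_DMSO against 1.28 and 0.921 CPM in MEF_creAF10, and 3.45 and 2.98 CPM in Day4_fl_DMSO against 1.24 and 1.15 CPM in MEF_fl. It was a low gene in all libraries, yet the stages did not overlap (1.85 ± 0.25, edgeR adjusted p = 2.17e-04; 1.41 ± 0.25, adjusted p = 0.00117). Bnip3, which takes part in mitophagy, rose by 0.82 and 0.70 in creAF10 and fl cells on the log2 scale (adjusted p = 3.59e-04 and 0.00102). Ndrg1, a gene of the stress response, was not called (adjusted p = 0.756 and 0.477), and its replicate 2 lay above replicate 1 in every group. Vegfa, the endothelial growth factor, fell by 0.52 in creAF10 and 0.58 in fl cells (adjusted p = 5.39e-04 and 2.89e-04).

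Car9, a cell-surface carbonic anhydrase, had 3.17 and 2.12 CPM in Day4_creAF10_DMSO against 9.63 and 9.95 CPM in MEF_creAF10, and 1.21 and 1.79 CPM in Day4_fl_DMSO against 9.43 and 9.89 CPM in MEF_fl. Every day 4 library lay far below every MEF library, and the log2 fold change was -1.89 ± 0.27 (edgeR adjusted p = 2.60e-04) and -2.67 ± 0.28 (adjusted p = 4.51e-05). P4ha2, a catalytic subunit of the prolyl hydroxylase that matures collagen, had 22.98 and 36.4 CPM in Day4_creAF10_DMSO against 118 and 139 CPM in MEF_creAF10, and 25.8 and 32.2 CPM in Day4_fl_DMSO against 113 and 133 CPM in MEF_fl. Its log2 fold change was -2.11 ± 0.20 (adjusted p = 3.82e-05) and -2.08 ± 0.20 (adjusted p = 4.44e-05). P4ha1, the other catalytic subunit, fell to 98.97 and 109.7 CPM in Day4_creAF10_DMSO, against 209 and 205 CPM in MEF_creAF10, and to 109 and 119 CPM in Day4_fl_DMSO, against 229 and 227 CPM in MEF_fl. These were tight, non-overlapping groups, with log2 fold changes of -0.99 ± 0.07 (adjusted p = 6.05e-06) and -1.003 ± 0.07 (adjusted p = 5.75e-06). Of the 17 fibroblast markers, collagens among them, 14 fell in each genotype and 1 rose, with a median log2 fold change of -1.26 in creAF10 and -1.23 in fl cells. Beside them, 27.5% of all genes fell and 27.5% rose in creAF10 cells, and 26.3% fell and 25.7% rose in fl cells. What part the fall of fibroblast genes as a whole has in that of P4ha1 and P4ha2 was not tested.

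Of 28 other glycolysis genes, such as the liver and testis forms, 17 were tested. In creAF10 cells 2 of these rose and 7 fell, and in fl cells 2 rose and 6 fell, with medians of -0.41 and -0.36. These are 11.8% higher and 41.2% lower in creAF10 cells and 11.8% higher and 35.3% lower in fl cells, to be read beside the 27.5% and 27.5%, and 25.7% and 26.3%, of all genes. Bsg, the chaperone of the SLC16A carriers, had 426 ± 31.1 CPM in Day4_fl_DMSO against 736 ± 28.5 CPM in MEF_fl (edgeR log2 fold change -0.79 ± 0.09, adjusted p = 6.28e-05). Of 31 genes of the pathways that branch from glycolysis, 9 rose (29.0%) and 10 fell (32.3%) in creAF10 cells and 8 rose (25.8%) and 9 fell (29.0%) in fl cells, near the shares of all genes. Pgd and Tkt of the pentose phosphate pathway rose in fl cells (0.52, adjusted p = 0.00155, and 0.58, adjusted p = 0.00182). Gfpt1, the entry to hexosamine synthesis, and Phgdh, the entry to serine synthesis, fell there (-0.89, adjusted p = 6.71e-05, and -1.14, adjusted p = 6.89e-04).

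Of 18 HIF subunits and regulators, 2 rose (11.1%) and 4 fell (22.2%) in creAF10 cells, beside 27.5% and 27.5% of all genes. In fl cells 1 rose (5.56%) and 5 fell (27.8%), beside 25.7% and 26.3% of all genes. The riser in fl cells was Epas1, the HIF2A subunit, with 72.9 ± 13.99 CPM in Day4_fl_DMSO against 18.7 ± 6.08 CPM in MEF_fl (edgeR log2 fold change 1.96 ± 0.35, adjusted p = 0.00196), so that Epas1 and Hif1a moved in opposite directions. Siah2, a ubiquitin ligase of the prolyl hydroxylases, fell (-1.12 ± 0.17, adjusted p = 4.20e-04). Of 45 other hypoxia targets 43 were tested, of which 16 rose (37.2%) and 19 fell (44.2%) in creAF10 and 14 rose (32.6%) and 16 fell (37.2%) in fl cells, with medians of -0.25 and -0.15. Both shares lay above those of all genes. Lox, which crosslinks collagen, fell with a log2 fold change of -2.92 (adjusted p = 2.05e-07), and P4hb, the partner of the P4ha subunits, fell with -1.08 (adjusted p = 1.14e-05) in fl cells. The transcription regulator Mxi1 and the chemokine receptor Cxcr4 rose (1.78, adjusted p = 1.43e-06, and 3.87, adjusted p = 6.75e-06).

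The promoter windows of the members were searched for the core letters bound by hypoxia-inducible factors, since members that are known HIF targets moved in both directions. A window is the 250 bases before and the first 50 bases after a RefSeq start of build GRCm38.p6. It was available for 34 of 36 members (Pkm2 under the symbol Pkm), and Slc2a3 and Ndrg1 had none in the table. ACGTG or GCGTG stood on either strand in a window of 31 of these 34 members (91.2%), and in 46.7% of 27025 genes with a window. Genes with several starts have more windows to match, and by window the shares were 81.25% of 48 and 43.8% of 32851. All genes with a window were taken here, whether or not they passed the filter on low counts, and base composition was not matched. The longer CACGTG, the E-box of MYC, USF and other factors, which always contains ACGTG on both strands, stood in 6 members (17.6%), and in 8.09% of all genes. The cores were found in a window of 15 of 18 matched members that rose on day 4 in both genotypes. Eno2, Gpi1 and Tpi1 had no match. All 5 members that fell in both genotypes had a core in a window. Pdk1 and Pkm2, which rose, and Vegfa, which fell, had cores in 1 of their windows and none in the other. For Pkm2 and Vegfa the window without a core was that of the more upstream start. A match is a description of the sequence and not a measured site.

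The 6 single-start windows shown are 3 of members that rose on day 4 (Ankrd37, Bnip3, Egln3), 2 of members that fell (Car9, P4ha2) and that of Slc16a3, which differed with SGC0946; capitals mark ACGTG and GCGTG on either strand, and each runs 5′ to 3′ along the gene's strand. Ankrd37 lies at chr8:45999801-46000100, minus strand, Bnip3 at chr7:138909457-138909756, minus strand, Egln3 at chr12:54203825-54204124, minus strand, Car9 at chr4:43506776-43507075, plus strand, P4ha2 at chr11:54100674-54100973, plus strand and Slc16a3 at chr11:120948817-120949116, plus strand.
Ankrd37: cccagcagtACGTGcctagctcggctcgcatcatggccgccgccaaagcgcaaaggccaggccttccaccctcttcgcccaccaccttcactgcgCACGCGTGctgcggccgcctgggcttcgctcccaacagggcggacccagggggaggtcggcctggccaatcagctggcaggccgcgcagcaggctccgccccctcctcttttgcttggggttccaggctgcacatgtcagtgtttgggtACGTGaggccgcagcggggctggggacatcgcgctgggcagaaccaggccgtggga
Bnip3: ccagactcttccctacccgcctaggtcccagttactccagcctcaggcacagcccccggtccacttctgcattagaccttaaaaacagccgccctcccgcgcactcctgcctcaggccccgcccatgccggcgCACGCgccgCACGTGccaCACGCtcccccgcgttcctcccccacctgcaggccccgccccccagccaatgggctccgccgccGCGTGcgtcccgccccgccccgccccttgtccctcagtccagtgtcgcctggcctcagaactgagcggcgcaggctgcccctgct
Egln3: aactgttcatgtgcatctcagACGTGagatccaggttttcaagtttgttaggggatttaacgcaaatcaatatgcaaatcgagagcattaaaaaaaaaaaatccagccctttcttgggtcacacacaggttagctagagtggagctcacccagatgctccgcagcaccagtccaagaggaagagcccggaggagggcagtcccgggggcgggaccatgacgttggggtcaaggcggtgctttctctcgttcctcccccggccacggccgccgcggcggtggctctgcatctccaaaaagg
Car9: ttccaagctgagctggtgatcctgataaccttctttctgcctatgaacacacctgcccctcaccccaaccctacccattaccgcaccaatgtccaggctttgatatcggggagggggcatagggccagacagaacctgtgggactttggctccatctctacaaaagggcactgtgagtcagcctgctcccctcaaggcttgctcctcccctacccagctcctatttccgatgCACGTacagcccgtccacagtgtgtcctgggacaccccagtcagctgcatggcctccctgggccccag
P4ha2: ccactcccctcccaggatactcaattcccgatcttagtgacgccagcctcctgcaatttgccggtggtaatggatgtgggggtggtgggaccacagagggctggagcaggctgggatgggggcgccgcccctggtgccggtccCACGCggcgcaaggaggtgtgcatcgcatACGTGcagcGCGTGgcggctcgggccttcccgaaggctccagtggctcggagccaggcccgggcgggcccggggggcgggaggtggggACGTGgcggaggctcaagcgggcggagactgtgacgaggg
Slc16a3: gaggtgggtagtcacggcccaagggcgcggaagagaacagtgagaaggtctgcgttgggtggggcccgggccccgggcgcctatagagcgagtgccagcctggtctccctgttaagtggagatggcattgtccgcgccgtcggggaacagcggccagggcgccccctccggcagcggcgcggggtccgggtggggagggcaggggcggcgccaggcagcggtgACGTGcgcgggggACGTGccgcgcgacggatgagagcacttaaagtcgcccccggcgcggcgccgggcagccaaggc

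With the DOT1L inhibitor on day 4, the lactate carrier Slc16a3 and the glucose transporters were higher and Aldoc was lower than in DMSO, in both genotypes. The call depended on the fit. Without a block edgeR called 0 of 36 members in either genotype, with an unadjusted p under 0.05 for 6 in creAF10 and 8 in fl cells. Counts at an unadjusted p, here and below, are not set beside the share of all genes at that threshold. They are thus not read as a result about the members. Over all genes that fit called 0.00718% higher and 0.0% lower in creAF10 cells, and 0.883% higher and 0.23% lower in fl cells. The paired fit, which compares the cultures of each source, called 5 members higher and 1 lower in creAF10 cells, beside 5.28% and 2.47% of all genes. In fl cells it called 8 higher and 2 lower, beside 10.6% and 7.1% of all genes. A single block for both stages called 1 higher and 1 lower in creAF10 and 4 higher and 1 lower in fl cells, beside 0.509%, 0.158%, 4.01% and 1.77% of all genes. DESeq2 called 0 members in creAF10 cells, with an unadjusted p under 0.05 for 8, and 4 higher in fl cells (Slc2a1, Slc2a3, Slc16a3 and Eno2), beside 0.25% and 1.63% of its genes called higher. The members' median log2 fold change without a block was 0.10 in creAF10 and 0.08 in fl cells, beside 0.00 and -0.01 over all genes.

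Slc16a3 changed most. It had 15.8 and 9.82 CPM in Day4_creAF10_SGC against 5.41 and 4.02 CPM in Day4_creAF10_DMSO, and 12.03 and 10.1 CPM in Day4_fl_SGC against 5.00 and 3.16 CPM in Day4_fl_DMSO. All 4 inhibitor libraries lay above all 4 DMSO libraries and above all 4 MEF libraries, with replicate 1 higher than replicate 2 in each group. The log2 fold change was 1.43 ± 0.16 in creAF10 cells (paired edgeR fit, adjusted p = 1.88e-06) and 1.46 ± 0.17 in fl cells (adjusted p = 2.74e-07), and without a block the adjusted p was 0.421 and 0.137. Of the summed TPM of Slc16a1 and Slc16a3, Slc16a3 made up 14.99% to 22.9% in SGC0946 against 4.62% to 9.02% in DMSO. Slc16a1 was not called (-0.07, adjusted p = 0.646, and -0.14, adjusted p = 0.162).

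Slc2a3 had 46.2 and 42.4 CPM in Day4_creAF10_SGC against 32.2 and 33.9 CPM in Day4_creAF10_DMSO, and 45.6 and 45.9 CPM in Day4_fl_SGC against 25.4 and 26.6 CPM in Day4_fl_DMSO. The inhibitor libraries reached similar levels in both genotypes, and the groups did not overlap in either. This gave a log2 fold change of 0.42 ± 0.09 in creAF10 cells (paired edgeR fit, adjusted p = 0.00269) and 0.81 ± 0.09 in fl cells (adjusted p = 1.92e-07), and without a block the adjusted p was 0.724 and 0.085. Without a block the fl value passed when MEF_creAF10 replicate 1 (adjusted p = 0.018) or replicate 2 (adjusted p = 0.0179) was left out. The difference between the genotypes was not called (-0.39 ± 0.13, adjusted p = 0.202). Slc2a1 had 113 and 98.6 CPM in Day4_creAF10_SGC against 86.03 and 81.3 CPM in Day4_creAF10_DMSO, and 108 and 99.96 CPM in Day4_fl_SGC against 84.2 and 74.9 CPM in Day4_fl_DMSO. The groups were again apart, with log2 fold changes of 0.33 ± 0.07 (paired fit, adjusted p = 0.00178; without a block 0.43) and 0.39 ± 0.07 (1.18e-04; without a block 0.0904).

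Aldoc, the member that had risen most on day 4, was lower with the inhibitor. It had 38.6 and 33.3 CPM in Day4_creAF10_SGC against 65.5 and 52.7 CPM in Day4_creAF10_DMSO, and 45.4 and 33.1 CPM in Day4_fl_SGC against 86.00 and 53.8 CPM in Day4_fl_DMSO. The groups did not overlap, and all 4 inhibitor libraries were still far above MEFs. It fell with a log2 fold change of -0.72 ± 0.09 in creAF10 cells (paired edgeR fit, adjusted p = 1.14e-05; without a block 0.673) and -0.81 ± 0.09 in fl cells (2.81e-07; without a block 0.232). Aldoc made up 4.43% to 5.91% of the TPM of Aldoa and Aldoc in SGC0946 against 7.16% to 12.1% in DMSO.

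**Figure D5:**
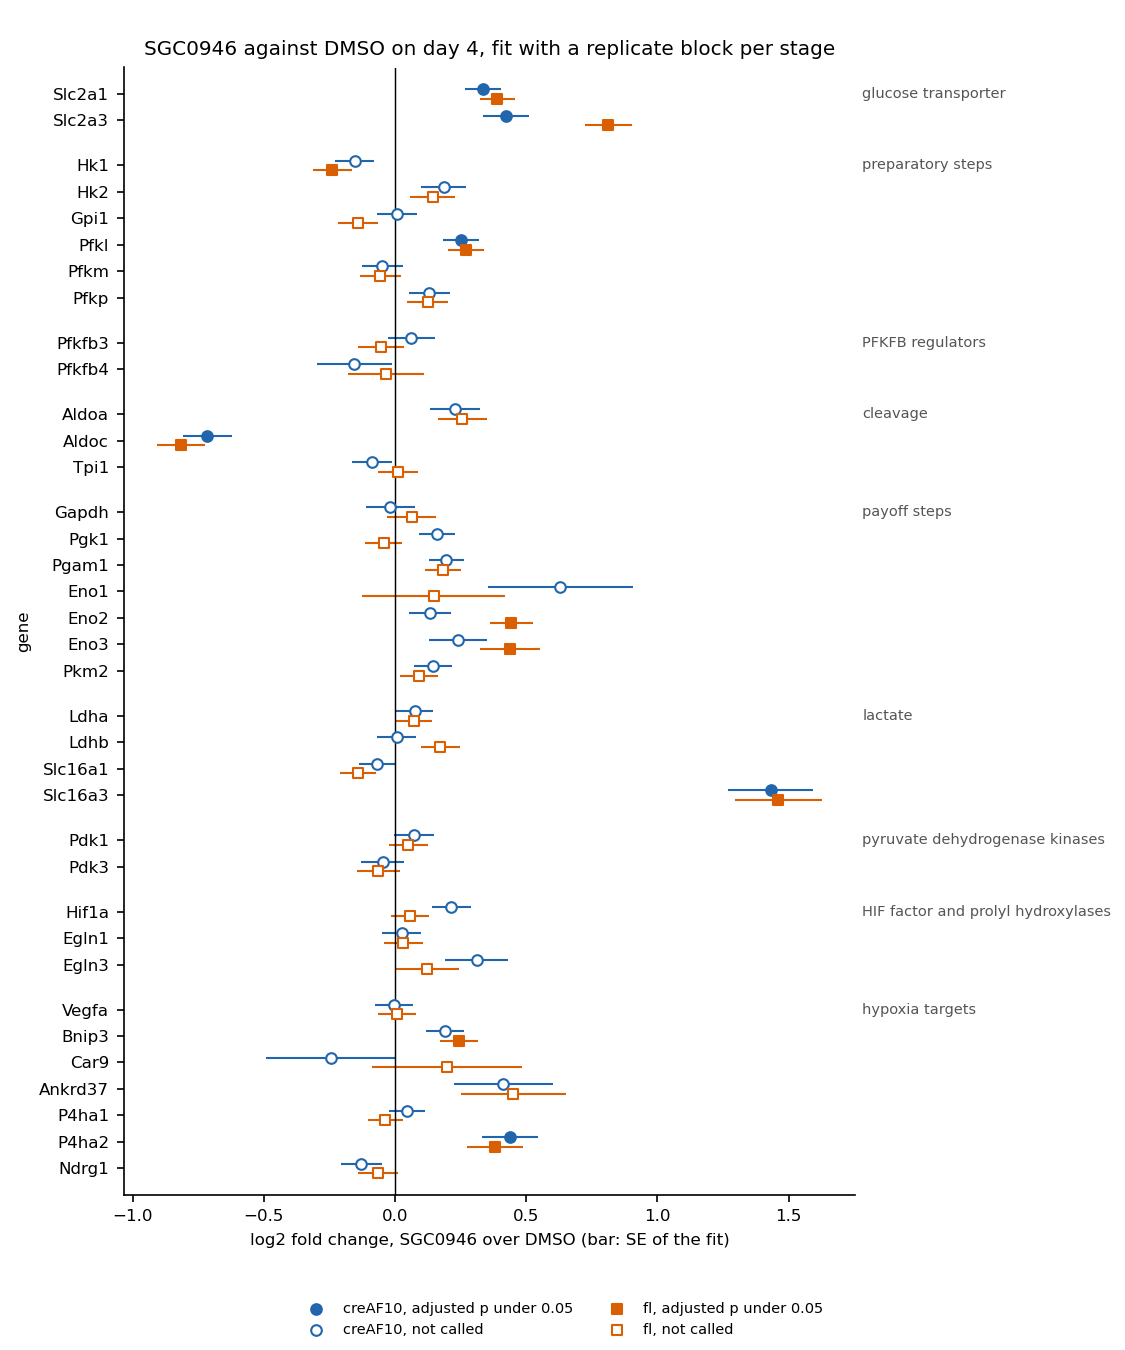
Log2 fold change of each member, SGC0946 over DMSO on day 4, from the edgeR fit with a replicate block per stage; circles are creAF10 cells, squares fl cells, bars the standard error of the fit, and filled symbols an adjusted p under 0.05 in that fit, which without the block held for no member. Slc16a3 lies farthest to the right and Aldoc farthest to the left in both genotypes.

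Smaller differences were called in the paired fit and not without a block. Pfkl was higher by 0.25 in creAF10 and 0.27 in fl cells (adjusted p = 0.0208 and 0.00543), and P4ha2 by 0.44 and 0.38 (adjusted p = 0.0121 and 0.016). P4ha2 had 39.4 and 40.4 CPM in Day4_creAF10_SGC against 22.98 and 36.4 CPM in Day4_creAF10_DMSO, and 35.8 and 39.5 CPM in Day4_fl_SGC against 25.8 and 32.2 CPM in Day4_fl_DMSO, all far below its level in MEFs. In fl cells, where the creAF10 values did not pass, Eno2 (0.44, paired edgeR fit, adjusted p = 2.62e-04), Eno3 (0.44, 0.00663) and Bnip3 (0.24, 0.0176) passed as higher and Hk1 (-0.24, 0.0239) as lower. Without a block Eno2 passed in fl cells when MEF_fl replicate 1 (adjusted p = 0.0476) or replicate 2 (adjusted p = 0.0483) was left out. The creAF10 values of Eno2, Eno3, Bnip3 and Hk1 were 0.13, 0.24, 0.19 and -0.15, all of the same sign. No member was called for a difference of its inhibitor effect between the genotypes, with 0 in the paired fit (3 at an unadjusted p under 0.05), 0 without a block (1) and 0 by DESeq2 (0). Over all genes the paired fit called 0.0718% higher and 0.323% lower, the fit without a block 0.0% and 0.0%, and DESeq2 0.00568% and 0.00568%. With so few calls over all genes, the lack of called members does not show that both genotypes responded alike.

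The bulk of the pathway showed no called difference with the inhibitor. Gapdh, Pkm2, Pgk1, Tpi1, Gpi1, Ldha, Hif1a, Egln1, Egln3, Vegfa and Pdk1 were called in neither genotype by either edgeR fit, with paired log2 fold changes between -0.14 and 0.31. Hk2, Pfkp, Aldoa, Pgam1, Eno1 and Ankrd37 were not called either. Their SGC0946 libraries, like those of Pkm2, lay above the DMSO libraries in both genotypes, and no uncalled member lay below in both. The share of all genes that do so was not counted, so this is not read as a result about the members. Among the other lists, the glycogen phosphorylase Pygl was called in fl cells without a block, with 23.04 ± 1.80 CPM in Day4_fl_SGC against 9.39 ± 0.373 CPM in Day4_fl_DMSO (log2 fold change 1.30 ± 0.13, edgeR adjusted p = 0.00739). In creAF10 cells Pygl had 25.7 ± 0.0567 CPM in SGC0946 against 12.9 ± 0.961 CPM in DMSO (0.995 ± 0.13, adjusted p = 0.0629; paired fit 1.68e-06). In the paired fit, 7 of 43 other hypoxia targets were higher (16.3%) and 1 lower (2.33%) in creAF10 cells, beside 5.28% and 2.47% of all genes, and 11 higher (25.6%) and 3 lower (6.98%) in fl cells, beside 10.6% and 7.1%. The HIF partner Arnt2, chosen after its values were seen, was higher in both genotypes (0.57, paired fit, adjusted p = 1.13e-05, and 0.65, 4.12e-07).

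Of the 17 fibroblast markers the paired fit called 4 higher (23.5%) and 2 lower (11.8%) in creAF10 cells, and 5 higher (29.4%) and 2 lower (11.8%) in fl cells, beside the same 5.28%, 2.47%, 10.6% and 7.1% of all genes. The fibroblast markers summed to 18995 and 19719.8 TPM in Day4_creAF10_SGC against 18296 and 19300.1 TPM in Day4_creAF10_DMSO, and to 18529.8 and 18517 TPM in Day4_fl_SGC against 18681 and 19408 TPM in Day4_fl_DMSO. The macrophage and blood markers summed to 72.5 and 88.6 TPM in Day4_creAF10_SGC against 63.9 and 94.5 TPM in Day4_creAF10_DMSO, and to 77.4 and 86.8 TPM in Day4_fl_SGC against 89.8 and 102 TPM in Day4_fl_DMSO. The 4 reprogramming factors summed to 523 and 542 TPM in Day4_creAF10_SGC against 591 and 566 TPM in Day4_creAF10_DMSO, and to 615 and 589 TPM in Day4_fl_SGC against 717 and 737 TPM in Day4_fl_DMSO. The factors were thus lower with the inhibitor in every pair of one source, as they were in creAF10 against fl cells on day 4. Their part in the members' differences was not tested.

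Between creAF10 and fl cells 2 members were called, Eno2 and Slc2a3, both on day 4 in DMSO, and in some fits only. In the paired fit these 2 of 36 are not far above the 3.37% of all genes called higher. The count is thus not read as a result about the members. In MEFs edgeR called 0 of 36 in creAF10 against fl cells without a block (0 at an unadjusted p under 0.05), 0 in the paired fit (2) and 0 by DESeq2 (0), while the paired fit called 0.122% of all genes higher and 0.84% lower, and a single block 0.0% and 0.0431%. On day 4 in SGC0946 it called 0 without a block (0), 0 in the paired fit (1) and 0 by DESeq2 (0), with 0.0718% and 0.1% of all genes called higher and lower in the paired fit. On day 4 in DMSO it called 0 without a block (2), and 2 higher and 0 lower in the paired fit, which called 3.37% of all genes higher and 3.37% lower. A single block called 0 there (3 at an unadjusted p under 0.05), with an adjusted p of 0.0874 for Eno2 and 0.412 for Slc2a3, beside 0.0% of all genes higher and 0.00718% lower. DESeq2 called 1, Eno2, beside 0.114% of its genes higher and 0.057% lower. In MEFs DESeq2 called 0.00741% of its genes higher and 0.126% lower, and in SGC0946 0.0114% and 0.0%. Without a block 0.0% of all genes were called in each of these 3 comparisons.

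Both were higher in creAF10 cells. Eno2 had 61.5 and 58.5 CPM in Day4_creAF10_DMSO against 41.6 and 43.5 CPM in Day4_fl_DMSO, with a log2 fold change of 0.49 ± 0.08 (paired edgeR fit, adjusted p = 4.51e-04; without a block 0.537). With SGC0946 it had 68.8 and 62.9 CPM in creAF10 cells against 60.1 and 55.9 CPM in fl cells, which was not called (0.18 ± 0.08, adjusted p = 0.587). The creAF10 libraries in DMSO thus overlapped the fl libraries in SGC0946, and fl in DMSO was the lowest day 4 group. Slc2a3 had 32.2 and 33.9 CPM in Day4_creAF10_DMSO against 25.4 and 26.6 CPM in Day4_fl_DMSO, with a log2 fold change of 0.34 ± 0.09 (paired fit, adjusted p = 0.0221; without a block 0.756). For Slc2a3 the order of the day 4 groups was the fl DMSO libraries lowest, then creAF10 in DMSO, then both SGC0946 groups, which overlapped each other. In MEFs Slc2a3 had 8.35 and 5.02 CPM in creAF10 against 7.41 and 5.58 CPM in fl cells, overlapping levels (0.02 ± 0.21, adjusted p = 1).

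Slc16a3, in contrast to its difference with the inhibitor, had overlapping levels between genotypes. The log2 fold change of creAF10 against fl cells was 0.29 ± 0.40 in MEFs (edgeR adjusted p = 1), 0.21 ± 0.40 on day 4 in DMSO (adjusted p = 0.974) and 0.21 ± 0.37 in SGC0946 (adjusted p = 1). Car9 had 3.17 and 2.12 CPM in Day4_creAF10_DMSO against 1.21 and 1.79 CPM in Day4_fl_DMSO, groups that did not overlap but were not called (0.80 ± 0.29, adjusted p = 0.66; paired fit 0.0754).

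Some members also differed between replicate numbers. Replicate number goes with the Y-linked counts, so the sex of the cells and any other difference between the 2 sources cannot be told apart. Replicate 1 was above replicate 2 in all 6 groups, or below in all 6, for 8 of 36 members (22.2%), beside 18.1% of all genes tested. These shares are near each other, so the count is not read as a result about the members. Replicate 1 was the higher for Aldoc, Slc16a3, Eno3, Pgk1 and Egln1, and replicate 2 for Ldhb, P4ha2 and Ndrg1. Among these 8 the difference was largest for Slc16a3 in MEF_creAF10, at 1.06 on the log2 scale, and for Eno3 in MEF_creAF10 and MEF_fl, at 0.93 and 0.90. For Ndrg1 it lay between -0.51 and -0.16 over the groups, and for Aldoc between 0.21 and 0.80.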

How the data were processed

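Polyadenylated RNA libraries were made with TruSeq RNA kits, per the labels' protocols. The deposited tables hold expected counts and TPM per gene, made by the authors with RSEM and Bowtie on build mm9, per the submitters' processing notes; versions and counting strand are not given in the sources used here. RSEM divides reads that fit several genes, and 35 of 36 members had a count that was not whole (tolerance 0.005) in at least 1 library. Levels between genes are given in the deposited TPM; the FPKM that the authors deposited beside them were not used for any value.

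Expected counts were rounded and fitted over all 12 libraries with edgeR 4.0.16 in R 4.3.3 (1 mean per group, TMM, filterByExpr, robust quasi-likelihood test, Benjamini-Hochberg adjustment over 13936 genes, threshold 0.05), which was tested on simulated data. CPM are TMM-scaled. Alternatives were DESeq2 1.42.0, RLE scaling, no filter on low counts, each library left out, a replicate block, and a block per stage (the paired fit). The replicate numbers were accepted as pairs: Y-linked counts split them alike in all groups, and deviations from group means correlated by 0.413 to 0.737 within a stage and 0.286 to 0.340 across stages. The labels do not name the animals behind the libraries. By the Y-linked counts the 2 libraries of a group came from different sources of cells, and the number of animals in each is not given. Without a block the p-values thus measure the spread between these libraries. With a block they measure the spread left once the mean difference between replicate numbers is taken out. In the paired fit, day 4 against MEF is not compared within a source. Depth was 14602536 to 22800753 expected counts per library.

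The members and lists were chosen with earlier results of these data known. Named with full statistics were the called members by adjusted p (at most 10 per comparison), Slc2a3 and Slc16a3 in each, members called only with a block, and up to 4 called genes of each other list; further members are described by role. Comparisons of day 4 with MEF and of SGC0946 with DMSO share the DMSO libraries.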

Additional observations from a re-analysis of the deposited data

Results flagged for a closer look

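Eno2, the neuronal enolase, changed by unequal amounts from MEFs to day 4 in the genotypes. The test of this difference, the log2 fold change in creAF10 cells minus that in fl cells, gave 0.51 ± 0.12 in the fit with a replicate block per stage (SE of the fit; edgeR adjusted p = 0.0277). Eno2 had 61.5 and 58.5 CPM in Day4_creAF10_DMSO against 34.8 and 33.3 CPM in MEF_creAF10, and 41.6 and 43.5 CPM in Day4_fl_DMSO against 31.9 and 37.02 CPM in MEF_fl. Without a block the adjusted p was 1, and the cause was not tested.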

How the results depend on the processing

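The counts of members called on day 4 against MEF kept within 1.5 times under RLE scaling, no filter, DESeq2 and a replicate block, except that the block per stage called 8 members lower in creAF10 cells; without 1 library they ranged from 18 to 20 higher and 5 to 5 lower in creAF10 cells and from 17 to 21 higher and 5 to 6 lower in fl cells. The SGC0946 calls rested on the pairing. With a replicate block 1 member was higher and 1 lower in creAF10 cells and 4 higher and 1 lower in fl cells, with a block per stage 5 and 1, and 8 and 2, and DESeq2 called 4 higher in fl cells, against 0 without a block; leaving out 1 library gave 0 to 1 higher in fl cells. For creAF10 against fl on day 4 in DMSO, DESeq2 called 1 higher, beside 0.114% of its genes. The block per stage called 2 higher there, beside 3.37% of all genes, and a single block called 0. For the interaction of AF10 deletion with day 4 the block per stage called 1, beside 0.933% of all genes. The causes were not tested.

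Over the 58 results of members named by rule, 974 values kept direction and call, 45 passed the threshold only under the alternative, and 23 changed sign, none of them called. Among all 36 members, leaving out 1 library ended 18 calls of 6 members on day 4 against MEF (Slc2a1, Pfkp, Pfkfb4, Eno2, Pfkl and Aldoa). Leaving out 1 library, Slc16a3 ranged over -0.62 to 0.46 (day 4 against MEF, creAF10), -0.44 to 0.24 (fl), -0.33 to 0.75 (creAF10 against fl in MEFs), -0.10 to 0.57 (in DMSO), -0.18 to 0.51 (in SGC0946), -0.38 to 0.31 (interaction with SGC0946; 0.0097 with no filter) and -0.54 to 0.54 (interaction with day 4). Slc2a3 ranged over -0.37 to 0.36 in MEFs and -0.11 to 0.0145 in SGC0946 (creAF10 against fl), and -0.0181 to 0.72 (interaction with day 4). Ldhb ranged over -0.49 to 0.00151 in creAF10 and -0.57 to 0.0552 in fl cells on day 4 against MEF. A group left with 1 library is assumed to vary like the others.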
